A study of Citrus junos with 4 samples.

Results

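The Calvin cycle and photorespiration enzymes described here are 43 of the 29406 genes in the expression table of mature leaves of Ziyang xiangcheng (Citrus junos). They are the genes whose description contains at least 1 of 12 enzyme names, among them ribulose bisphosphate carboxylase, phosphoribulokinase, fructose-bisphosphate aldolase, transketolase, glycine decarboxylase and serine hydroxymethyltransferase. The description of 37 of them is that of such an enzyme. The other 6 met the rule only through a lesser match in a description that opens with another protein, and they are counted apart. The term fructose-1,6-bisphosphatase found 0 genes, since the descriptions print a space in place of the comma, so that enzyme is given with the other pathway genes. No gene among the members is described as the large subunit of Rubisco, which plants encode in the chloroplast genome.

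In the Calvin cycle, Rubisco adds CO2 to ribulose bisphosphate in the chloroplast stroma, the product is phosphorylated and reduced to triose phosphates, and aldolases, phosphatases and transketolase rebuild the acceptor. When Rubisco takes oxygen instead of CO2, photorespiration returns part of the carbon through peroxisomes and mitochondria, where glycine decarboxylase and serine hydroxymethyltransferase turn glycine into serine. Several of the same reactions also run in the cytosol as glycolysis, catalysed by isoforms from separate nuclear genes.

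The study set doubled diploids (4×) against diploids (2×) of the same cultivar, to ask how genome doubling changes leaf gene expression. The study describes the 4× plants as spontaneous doublings of the 2× genotype. It inferred this from shared alleles at a set of simple sequence repeat markers, after excluding diploids with heterozygous loci. Alleles outside these markers were not compared. The 2 groups differ in ploidy, and neither received a treatment. Leaves 3 to 5 months old, the 4th or 5th from the top, were taken in the morning from greenhouse seedlings, and each library was a pool of 4 plants, named here 4×-1, 4×-2, 2×-1 and 2×-2. With 2 pools per group, p-values measure the spread between pools and not between plants.

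The values were RPKM, that is, the reads of a gene scaled to its length and to the reads of the library, so levels can be compared between genes. They do not say how much RNA a cell held. Library totals recovered from the steps in the values were 9363285 and 8874306 reads in 4×, and 9324856 and 9545185 reads in 2×. The tissue was checked by the 14 genes described as chlorophyll a-b binding proteins, whose summed level was 9188 and 9474 RPKM in 4×, and 8811 and 10860 RPKM in 2×. Among markers of other cells, 18 genes described as xylem cysteine proteinases summed to 304 and 294 RPKM in 4×, against 183 and 189 RPKM in 2×. Of their 6 tested genes 2 were called higher in 4×, and 3 of the 18 were at 0 in every library. No gene of the phloem, guard cell, dividing cell or root lists was called, and none of these 4 sums separated the groups.

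Expression was compared with limma on log2(RPKM + 0.5), and a gene was called when its adjusted p (Benjamini-Hochberg over all tested genes) was below 0.05. A positive log2 fold change means a higher value in 4×. Of the 43 members 39 averaged 1 RPKM or more and were tested. Only 2 of them were called, 1 higher and 1 lower in 4×, where 1.39% of the 16157 tested genes were called, 0.396% higher and 0.99% lower. A total of 8 members had an unadjusted p below 0.05, where 13.3% of all tested genes did. The called members were a cytosolic aldolase, which rose in 4×, and a minor copy of the Rubisco small subunit, which fell. The 2 xylem markers named above moved with the groups as well, and their part in these calls was not tested. In bulk leaves, fewer cells of a type and less RNA per cell cannot be told apart.

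Voom on the recovered reads called 3 members, where it called 2.51% of all tested genes, and scaling the libraries by the median of ratios called 1, where it called 1.1%. In 16 of the 39 tested members both 4× libraries lay above both 2× libraries, where 17.5% of all tested genes did, and in 9 both lay below, where 26.2% did. The members divided by compartment, as the descriptions give it. Of the 14 tested plastid members 12 had a log2 fold change above 0, with a median of 0.25. Of the 7 tested cytosolic members 5 had one below 0, with a median of -0.21. With each library left out in turn, the plastid median ran from 0.15 to 0.35 and the cytosolic median from -0.28 to -0.08. Over all tested genes 44.4% were above 0 and the median was -0.03. The members share the same 4 libraries and are not independent of each other, so these counts are a description. They were made after the values had been seen.

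**Figure D1:**
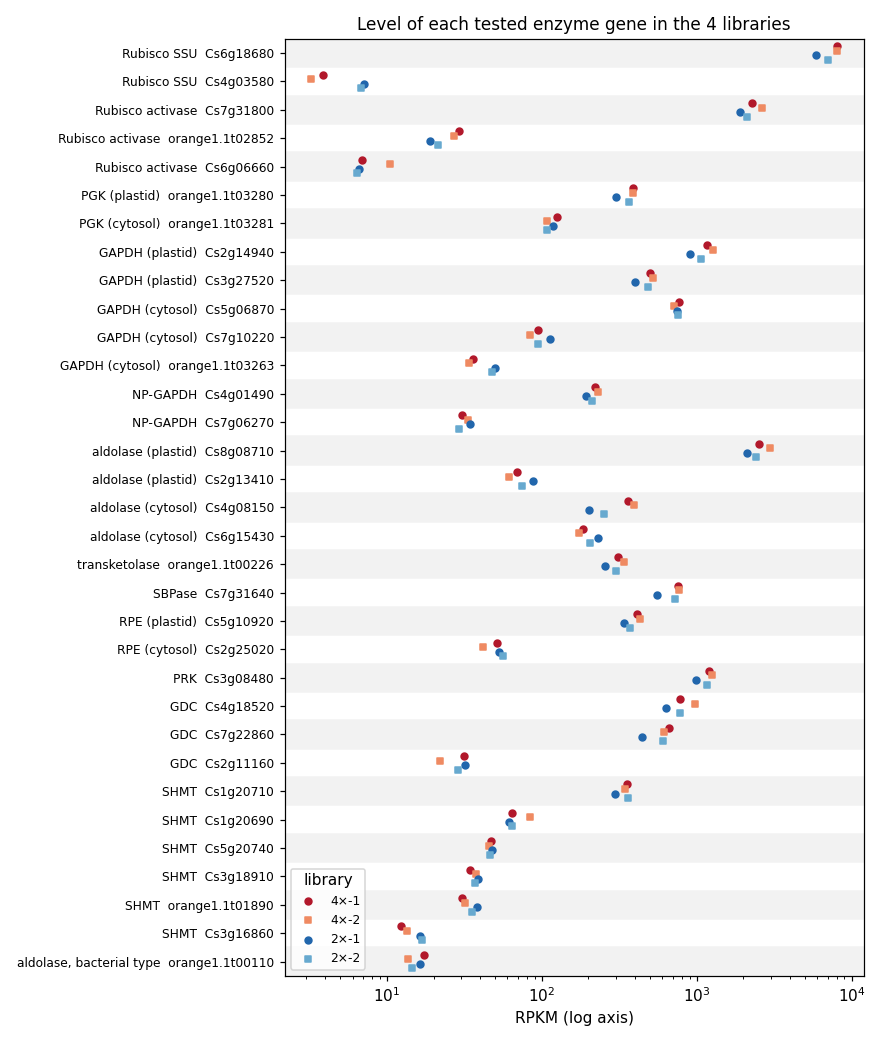
RPKM on a log axis of the 33 tested members with an enzyme's own description, 1 row per gene, with the 2 libraries of 4× (red) and the 2 of 2× (blue). Levels ran over 3 orders of magnitude, and the abundant plastid members sat a little to the right in 4×. SSU, small subunit. PGK, phosphoglycerate kinase. GAPDH, glyceraldehyde-3-phosphate dehydrogenase. NP, non-phosphorylating. SBPase, sedoheptulose-1,7-bisphosphatase. RPE, ribulose-phosphate 3-epimerase. PRK, phosphoribulokinase. GDC, glycine decarboxylase. SHMT, serine hydroxymethyltransferase.

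Rubisco, the CO2-fixing enzyme, was represented by the small subunit, which is encoded in the nucleus. Nearly all of its reads came from Cs6g18680, at 8077 and 8070 RPKM in 4×-1 and 4×-2, and 5868 and 7089 RPKM in 2×-1 and 2×-2. Both 4× libraries were above both 2× libraries, and the 2× libraries were farther from each other than the 4× libraries were. It was the gene with the 2nd highest RPKM of the table in both 4× libraries and in 2×-2, and the 4th in 2×-1. The mean was 8073 ± 4.92 RPKM in 4× and 6478 ± 863 RPKM in 2× (SD, n = 2 each). The log2 fold change was 0.32 ± 0.32 (SE) with an adjusted p of 0.744 by limma, and its 95% interval from -0.39 to 1.03 includes both no change and a doubling.

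The other small subunit gene, Cs4g03580, had 3.88 and 3.24 RPKM in 4×, against 7.16 and 6.81 RPKM in 2×. The groups did not overlap. These values rest on 43 and 34 reads in 4×, and 79 and 77 reads in 2×. The log2 fold change was -0.89 ± 0.18 (SE), with an adjusted p of 0.0466 in limma. The call was lost when 4×-2, 2×-1 or 2×-2 was left out, with adjusted p-values of 0.118, 0.196 and 0.156 and log2 fold changes of -0.77, -0.85 and -0.92. It was also lost when libraries were scaled by the median of ratios (adjusted p = 0.0536, log2 fold change -0.86). Summed over both genes, the small subunit stood at 8081 and 8073 RPKM in 4×, and 5875 and 7095 RPKM in 2×, so the called copy added almost nothing to the level of the subunit. Small subunit genes are often near-identical copies, and reads that fit several copies are not in these values.

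Rubisco activase, which frees Rubisco of inhibiting sugar phosphates, had 3 genes, all with higher means in 4×. The main one, Cs7g31800, had 2270 and 2636 RPKM in 4×, and 1891 and 2116 RPKM in 2×. The groups did not overlap, and its log2 fold change of 0.29 ± 0.21 (SE) was not called (adjusted p = 0.622, limma). Of the minor genes, orange1.1t02852 had 29.0 and 27.1 RPKM in 4×, and 18.8 and 21.4 RPKM in 2×. This was the second largest log2 fold change among the tested members, 0.47 ± 0.12 (SE), and its adjusted p of 0.1001 missed the threshold. The third gene, Cs6g06660, had 6.95 and 10.4 RPKM in 4×, and 6.56 and 6.40 RPKM in 2×. Here 4×-1 was only just above the 2× libraries and 4×-2 well above them.

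Phosphoglycerate kinase, which phosphorylates the first product of carbon fixation, had 1 plastid and 1 cytosolic gene. The plastid gene orange1.1t03280 had 387 and 386 RPKM in 4×, and 302 and 364 RPKM in 2×. The cytosolic gene orange1.1t03281 had 126 and 107 RPKM in 4×, and 118 and 108 RPKM in 2×, so its groups overlapped while those of the plastid gene did not. The log2 fold changes were 0.22 ± 0.13 (SE) for the plastid gene and 0.04 ± 0.12 (SE) for the cytosolic one, neither called.

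Glyceraldehyde-3-phosphate dehydrogenase is the reducing step of the cycle in the plastid and a step of glycolysis in the cytosol. Its most abundant gene was the plastid Cs2g14940, with 1164 and 1273 RPKM in 4×, and 904 and 1071 RPKM in 2×. The most abundant cytosolic gene, Cs5g06870, had 772 and 710 RPKM in 4×, and 750 and 761 RPKM in 2×. The plastid gene had higher values in both 4× libraries (log2 fold change 0.31 ± 0.17, SE), and the cytosolic gene overlapped between the groups (-0.03 ± 0.15, SE). The other plastid gene, Cs3g27520, had 498 and 519 RPKM in 4×, and 402 and 482 RPKM in 2×. The cytosolic gene next in level, Cs7g10220, had 93.8 and 84.4 RPKM in 4×, and 112 and 94.2 RPKM in 2×. Both are named after their values were seen, and neither was called. A less abundant cytosolic gene, orange1.1t03263, had 36.2 and 34.0 RPKM in 4×, against 50.2 and 48.0 RPKM in 2×. The groups lay apart with a log2 fold change of -0.48 ± 0.10 (SE), the second largest decrease among the tested members. Its adjusted p was 0.065 on RPKM and 0.031 with limma voom on the recovered reads.

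The shares of the 2 compartments can be set side by side for this enzyme. Cytosolic genes made up 35.2% and 31.6% of its summed RPKM in 4×, and 41.1% and 36.8% in 2×. The cytosolic share was lower in both 4× libraries than in both 2× libraries, but 4×-1 and 2×-2 were close. The phosphoglycerate kinase share of the cytosolic gene overlapped between the groups, at 24.5% and 21.8% in 4×, and 28.1% and 22.9% in 2×.

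The non-phosphorylating dehydrogenase, which makes NADPH from triose phosphate without forming ATP, had 2 genes. Cs4g01490 had 219 and 231 RPKM in 4×, and 192 and 211 RPKM in 2×. The minor gene Cs7g06270 had 30.5 and 33.2 RPKM in 4×, and 34.4 and 29.0 RPKM in 2×. Neither was called, and the minor gene overlapped between the groups.

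Aldolase joins triose phosphates to fructose bisphosphate in the plastid and cleaves or forms it in the cytosol. The main plastid gene, Cs8g08710, had 2539 and 2990 RPKM in 4×, and 2101 and 2412 RPKM in 2×. It was the most abundant member after the Rubisco small subunit, and its groups did not overlap. The log2 fold change of 0.29 ± 0.22 (SE) was not called, with an adjusted p of 0.646 by limma. A minor plastid gene, Cs2g13410, had its values the other way, at 69.2 and 61.2 RPKM in 4×, and 87.5 and 74.4 RPKM in 2×. It is named after its values were seen and was not called (log2 fold change -0.31 ± 0.12, SE).

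The cytosolic aldolase Cs4g08150 showed the largest increase among the tested members. It had 362 and 391 RPKM in 4×, against 202 and 250 RPKM in 2×. Both 4× libraries were well above both 2× libraries, on between 2626 and 4841 recovered reads per library. The mean was 376 ± 21.1 RPKM in 4× and 226.3 ± 34.3 RPKM in 2× (SD, n = 2 each), a ratio of 1.66, and the log2 fold change was 0.74 ± 0.14 (SE) with an adjusted p of 0.0383 in limma. The call was lost without 4×-2 (adjusted p = 0.107) and without 2×-1 (0.102), with log2 fold changes of 0.68 and 0.59. The gene is also on a list the study drew from these libraries, so the call is no independent evidence of its direction.

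The other cytosolic aldolase, Cs6g15430, had 185 and 175 RPKM in 4×, and 232 and 206 RPKM in 2×. It was lower in both 4× libraries, with an uncalled log2 fold change of -0.28 ± 0.12 (SE), and is named after its values were seen. With the 2 genes moving in opposite directions, Cs4g08150 made up 66.1% and 69.2% of cytosolic aldolase RPKM in 4×, against 46.6% and 54.8% in 2×. The sum of both was 547 and 566 RPKM in 4×, and 434 and 457 RPKM in 2×. Because plastid aldolase was also higher in 4×, the cytosolic share of all aldolase overlapped between the groups, at 17.3% and 15.6% in 4×, and 16.5% and 15.5% in 2×. A further gene, orange1.1t00110, is described as an aldolase next to bacterial tagatose-bisphosphate aldolases. It had 17.3 and 13.6 RPKM in 4×, and 16.3 and 14.6 RPKM in 2×, and did not separate the groups.

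**Figure D2:**
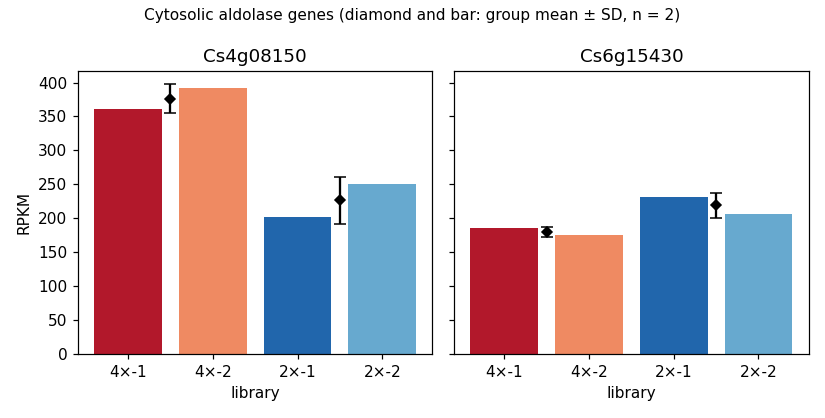
RPKM of the 2 cytosolic aldolase genes in each library (bars, axis from 0), with the mean and SD of each group (diamond and whisker, n = 2). Cs4g08150 was higher in both 4× libraries than in both 2× libraries, and Cs6g15430 was lower in both.

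The enzymes that rebuild the CO2 acceptor followed the main plastid genes in direction. Transketolase, which moves pairs of carbon atoms between sugar phosphates, came from orange1.1t00226, with 312 and 341 RPKM in 4×, and 257 and 300 RPKM in 2×. A second gene, Cs7g24920, had 0 reads in both 4× libraries and 1 read in each 2× library and was not tested. Sedoheptulose-1,7-bisphosphatase, a step found only in the plastid cycle, was Cs7g31640, with 755 and 770 RPKM in 4×, and 552 and 727 RPKM in 2×. Its 2 diploid pools were far apart, and 2×-2 was close to the 4× libraries. The log2 fold changes were 0.23 ± 0.13 (SE) for transketolase and 0.27 ± 0.17 (SE) for the phosphatase, and neither was called.

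Ribulose-phosphate 3-epimerase interconverts pentose phosphates. The plastid gene Cs5g10920 had 411 and 428 RPKM in 4×, and 341 and 371 RPKM in 2×. The cytosolic gene Cs2g25020 had 51.2 and 41.8 RPKM in 4×, and 52.7 and 56.3 RPKM in 2×. Neither gene overlapped between the groups, with the plastid gene higher (0.24 ± 0.13, log2 fold change and SE) and the cytosolic gene lower (-0.23 ± 0.12) in 4×, and neither was called. Phosphoribulokinase, which makes the CO2 acceptor in the last step of the cycle, was the single gene Cs3g08480. It had 1202 and 1247 RPKM in 4×, and 987 and 1164 RPKM in 2×, an uncalled log2 fold change of 0.19 ± 0.17 (SE).

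**Figure D3:**
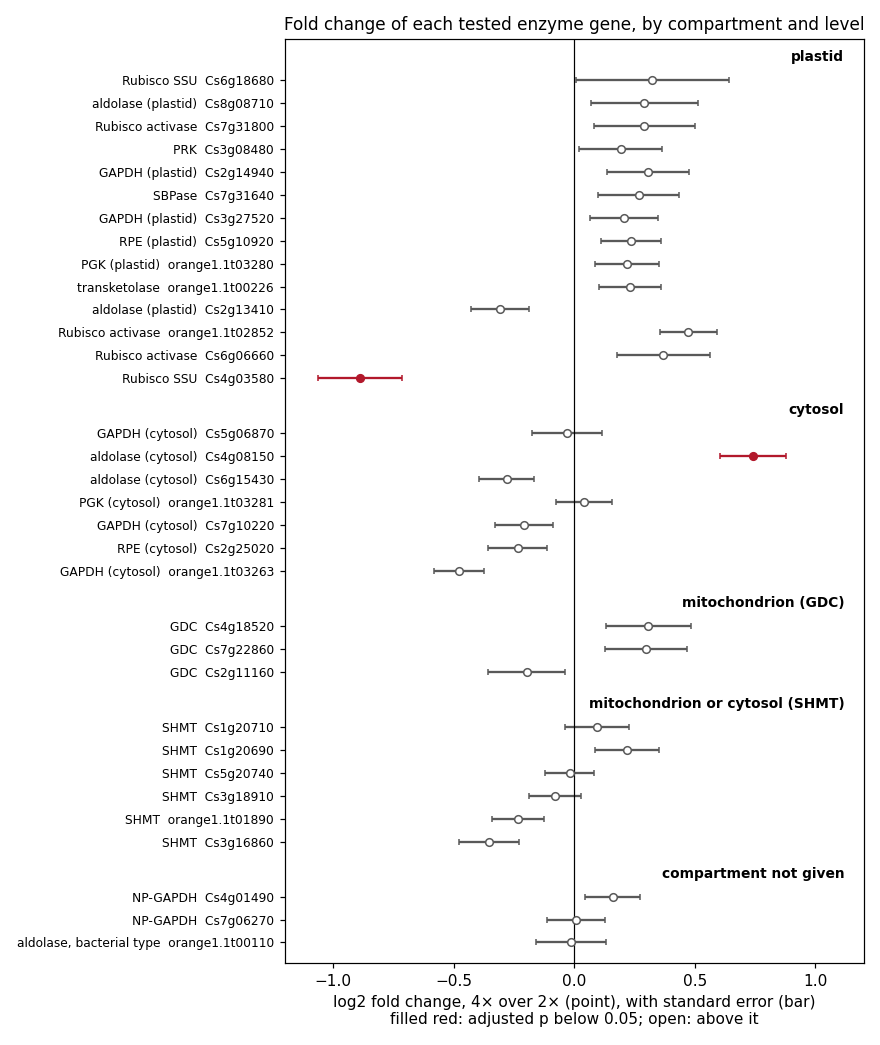
Log2 fold change of 4× over 2× (points) with its standard error (bars) for the 33 tested members with an enzyme's own description, grouped by compartment and ordered by mean RPKM. The 10 most abundant plastid members all lay between 0.19 and 0.32, and the 2 filled points, Cs4g08150 and Cs4g03580, are the called genes.

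Glycine decarboxylase releases CO2 and ammonia from glycine in the mitochondria of photosynthetic cells. Of its 3 genes, Cs4g18520 had 782 and 972 RPKM in 4×, and 633 and 785 RPKM in 2×, and Cs7g22860 had 662 and 614 RPKM in 4×, and 444 and 606 RPKM in 2×. For the first gene 4×-1 and 2×-2 were nearly equal, and for the second 2×-2 was close to 4×-2. Their log2 fold changes of 0.31 ± 0.18 and 0.30 ± 0.17 (SE) were not called. The third gene, Cs2g11160, had 31.4 and 22.1 RPKM in 4×, and 31.7 and 29.0 RPKM in 2×. It is named after its values were seen. Its groups overlapped, and its log2 fold change of -0.20 ± 0.16 (SE) ran the other way and was not called either. Summed over these 3 genes, the level was 1475 and 1609 RPKM in 4×, and 1108 and 1419 RPKM in 2×. The enzyme also has a T protein, given below with the other pathway genes, so this sum is not its whole level. Whether the 3 genes encode the same protein of the enzyme was not examined.

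Serine hydroxymethyltransferase, which makes serine from glycine in photorespiration and also serves one-carbon metabolism elsewhere in the cell, had 8 genes, and the descriptions did not divide them by compartment. The most abundant, Cs1g20710, had 356 and 346 RPKM in 4×, and 298 and 362 RPKM in 2×, and its groups overlapped. The second, Cs1g20690, had 64.0 and 83.4 RPKM in 4×, and 61.7 and 63.9 RPKM in 2×. Cs3g16860 had the third largest decrease among tested members, with 12.2 and 13.4 RPKM in 4×, against 16.3 and 16.8 RPKM in 2×. The groups of Cs3g16860 did not overlap, and the log2 fold change was -0.35 ± 0.12 (SE) with an adjusted p of 0.24 by limma. Of the 6 tested genes 2 were above 0 and 4 below, none called, and 2 genes were at 0 in every library. The sum over the enzyme overlapped, at 545 and 558 RPKM in 4×, and 502 and 561 RPKM in 2×.

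**Figure D4:**
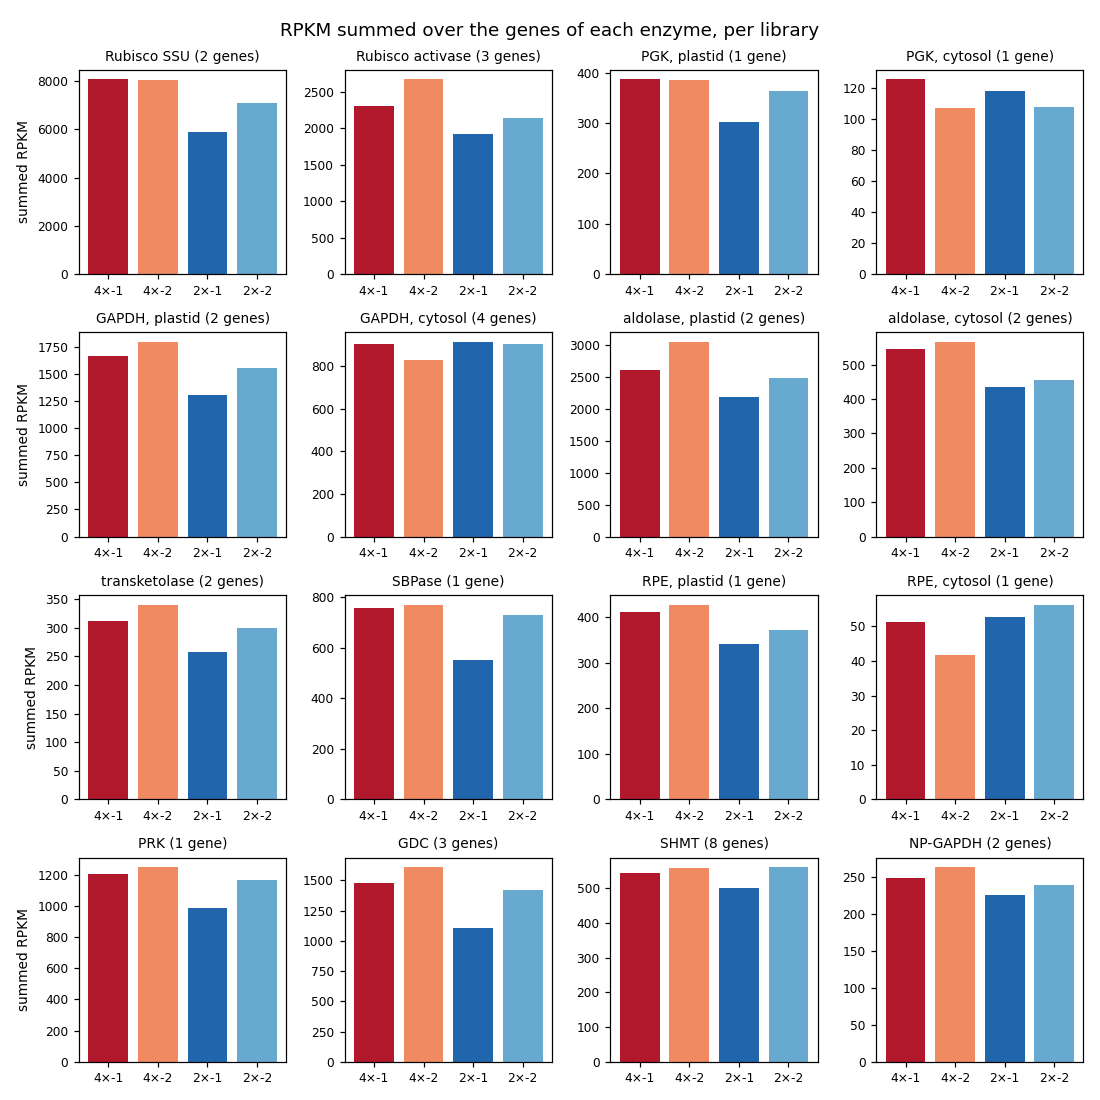
RPKM summed over the genes of each enzyme in each library (bars, each axis from 0), with plastid and cytosolic genes of an enzyme in separate panels. In the panels of the Rubisco small subunit, activase, the plastid enzymes and glycine decarboxylase, both 4× bars were above both 2× bars and 2×-1 was the lowest. The same order held for the cytosolic aldolase and the non-phosphorylating dehydrogenase. It did not hold for the cytosolic kinase, dehydrogenase and epimerase.

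The abundant plastid and glycine decarboxylase genes differed between the 2 diploid pools. The 10 plastid and 2 glycine decarboxylase genes that averaged 100 RPKM or more, a group formed after the values had been seen, were all at their lowest in 2×-1. Among all tested genes of that level 30.8% were lowest in 2×-1, and 19.4% of all tested genes were. The log2 difference of 2×-2 over 2×-1 in these 12 genes ran from 0.12 to 0.45, with a median of 0.25, close in size to the ploidy difference, whose median was 0.28. All 12 log2 fold changes remained above 0 without 2×-1, but their median fell to 0.14. Without 2×-2 all 12 were again above 0 and the median was 0.38. Over all tested members the median was 0.08 without 2×-1 and -0.0052 without 2×-2, against 0.07 with all 4 libraries, and the sum of the cytosolic members was 1.04 times as high in 4× with or without either diploid pool. None of the 12 was called in the comparison of all 4 libraries, on RPKM or with voom on recovered reads, or had an unadjusted p below 0.05. Among all tested genes 1.39% were called on RPKM and 2.51% with voom, and 13.3% had an unadjusted p below 0.05.

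The same library was low in the chlorophyll a-b binding genes, of which 11 of the 12 tested were at their lowest in 2×-1. Their sum was dominated by 1 gene, Cs2g03780, with 5334 and 5558 RPKM in 4×, and 5886 and 7014 RPKM in 2×. The other 13 summed to 3854 and 3916 RPKM in 4×, and 2925 and 3846 RPKM in 2×, so 2×-1 stood apart from the other 3 libraries. The part of these genes or of 2×-1 in the plastid enzyme values was not tested beyond leaving the library out. The 15 plastid members together made up 2.79% and 3.04% of the summed RPKM of the libraries in 4×, and 2.18% and 2.56% in 2×. The 8 cytosolic members made up 0.256% and 0.250% in 4×, and 0.241% and 0.241% in 2×.

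**Figure D5:**
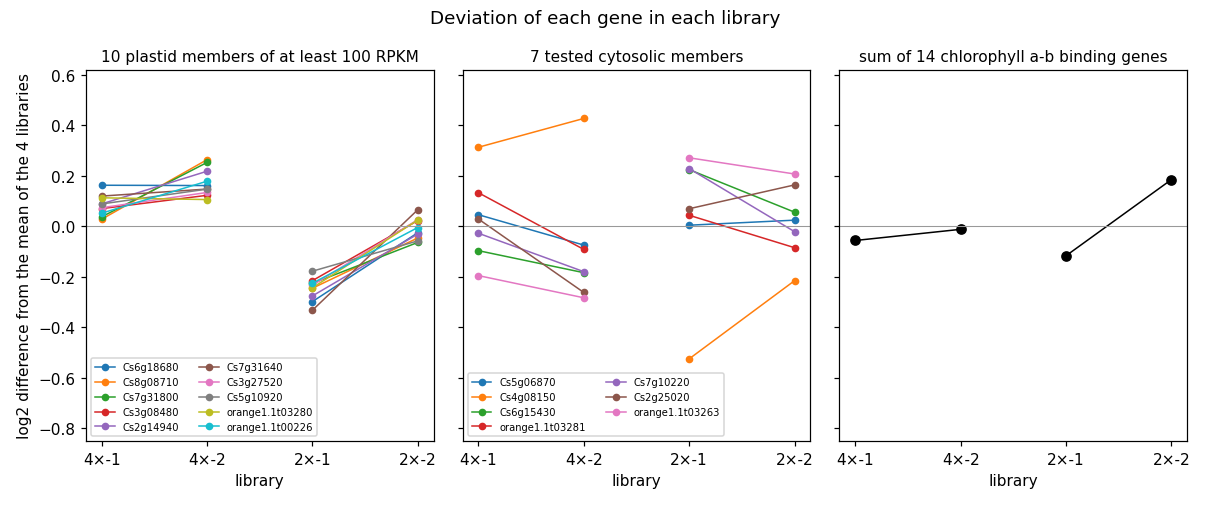
Log2 difference of each gene from its mean over the 4 libraries, for the 10 plastid members of at least 100 RPKM (left), the 7 tested cytosolic members (middle) and the sum of the 14 chlorophyll a-b binding genes (right), with lines joining libraries of a group. The plastid members were all lowest in 2×-1. The chlorophyll a-b binding sum was too, at 8811 RPKM against 9188 RPKM in 4×-1, but it was highest in 2×-2, at 10860 RPKM. Of the 7 cytosolic members 6 were lowest in 4×-2. Among all tested genes 29.0% were lowest in 4×-2, and among those of at least 100 RPKM 42.6% were.

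The remaining members added little. Of the 6 genes that met the rule through a lesser match, which include 2 described as alanine-glyoxylate aminotransferases and 1 as a D-lactate dehydrogenase, none was called, and their log2 fold changes ran from -0.34 to 0.11. None was called by voom either, and 1 had an unadjusted p below 0.05. Of all tested genes 1.39% were called by limma and 2.51% by voom, and 13.3% had an unadjusted p below 0.05. The 4 untested members were 2 serine hydroxymethyltransferase genes at 0, the transketolase gene with single reads and a cytosolic glyceraldehyde-3-phosphate dehydrogenase gene with 1 read in 2×-1.

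Other genes of the 2 pathways were gathered by description, 95 in all, of which 79 were tested. In 63 of the 95 the words stood within the first 80 characters of the description, and 50 of these were tested. The rest held the words only later, as a lesser match. Of the 50 tested genes with the words near the start, 0 were called. Only 1 of the 79 was called, a lesser match, where 1.39% of all tested genes were called. It was Cs2g02120, described as a tonoplast dicarboxylate transporter, a kind of carrier that moves malate into the vacuole. It had 37.0 and 36.4 RPKM in 4×, against 24.3 and 23.1 RPKM in 2×. The groups lay apart, with a log2 fold change of 0.62 ± 0.11 (SE) and an adjusted p of 0.0325 in limma, and the call was lost when any 1 library was left out (adjusted p from 0.0627 to 0.119), while the log2 fold change stayed between 0.59 and 0.66. A tonoplast carrier is not one of the plastid dicarboxylate carriers of photorespiration, so this gene met the words of the list and not its subject.

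Some photorespiratory enzyme genes outside the members also had higher values in 4× that were not called. The 79 tested other pathway genes had no common direction, with 41 log2 fold changes above 0, 38 below and a median of 0.01. Over all tested genes 44.4% were above 0 and the median was -0.03. Serine-glyoxylate aminotransferase (Cs2g31250), a peroxisomal step, had 676 and 737 RPKM in 4×, and 465 and 594 RPKM in 2×. The most abundant hydroxypyruvate reductase (Cs8g02560), which makes glycerate, had 260 and 245 RPKM in 4×, and 176 and 225.5 RPKM in 2×. Both were higher in both 4× libraries, with adjusted p-values of 0.274 and 0.318 by limma. Glycolate oxidase appears in the table as (S)-2-hydroxy-acid oxidase, a name added after the descriptions were seen. Its most abundant gene, Cs5g15000, had 1289 and 1279 RPKM in 4×, and 974 and 1192 RPKM in 2×, and was not called. The T protein of glycine decarboxylase (Cs2g02890, an aminomethyltransferase) had 595 and 590 RPKM in 4×, and 483 and 587 RPKM in 2×, so 2×-1 alone was low.

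Among genes with the enzyme's words near the start of the description, the main phosphoglycolate phosphatase, glycerate kinase, catalase and ferredoxin-dependent glutamate synthase genes overlapped between the groups. Phosphoglycolate phosphatase (Cs6g05110), the first step of photorespiration, had 231 and 238 RPKM in 4×, and 188 and 247 RPKM in 2×. A more abundant gene, orange1.1t03953, met these words only as a lesser match and is named after its values were seen. It had 350 and 344 RPKM in 4×, and 246 and 256 RPKM in 2×. Its log2 fold change of 0.47 ± 0.12 (SE) was not called by limma (adjusted p = 0.099) but was called by voom (adjusted p = 0.033). Glycerate kinase (Cs1g13950), the last step of photorespiration, had 80.004 and 84.1 RPKM in 4×, and 72.3 and 80.4 RPKM in 2×. Catalase (Cs3g27290), which removes the peroxide that glycolate oxidase makes, had 765 and 855 RPKM in 4×, and 740 and 892 RPKM in 2×. The overlap of glycerate kinase was slight, as 4×-1 lay just under 2×-2. Glutamine synthetase, which takes up ammonia, was highest in Cs9g05680, with 437 and 434 RPKM in 4×, and 318 and 401 RPKM in 2×, not called. Another gene of this enzyme, Cs6g17430, is named after its values were seen and ran the other way. It had 129 and 126 RPKM in 4×, and 178 and 158 RPKM in 2×, an uncalled log2 fold change of -0.40 ± 0.11 (SE).

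Of the remaining Calvin cycle genes, fructose-1,6-bisphosphatase was found under its spelling with a space, again after the descriptions were seen. Its most abundant gene, Cs3g21280, had 126 and 140 RPKM in 4×, and 88.7 and 118 RPKM in 2×, a log2 fold change of 0.38 ± 0.14 (SE). The 16 genes added in this way include Rubisco large subunit N-methyltransferases. Of them 0 were called by limma or voom, where 1.39% and 2.51% of all tested genes were. An unadjusted limma p below 0.05 was found for 4, where 13.3% of all tested genes had one. Triosephosphate isomerase (Cs8g18560) had 260 and 211 RPKM in 4×, and 257 and 267 RPKM in 2×, and ribose-5-phosphate isomerase (Cs3g11320) had 67.6 and 72.5 RPKM in 4×, and 62.5 and 71.5 RPKM in 2×. Both isomerases overlapped between the groups.

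Regulators and partners of the cycle showed the low value of 2×-1 in part. CP12 (orange1.1t01675), which binds phosphoribulokinase and the plastid dehydrogenase in the dark, had 1297 and 1222 RPKM in 4×, and 1127 and 1202 RPKM in 2×. The most abundant thioredoxin of the F or M type (Cs3g20630), which activates cycle enzymes in the light, had 745 and 708 RPKM in 4×, and 455 and 697 RPKM in 2×. Carbonic anhydrase (Cs2g28060), which interconverts CO2 and bicarbonate, had 741 and 793 RPKM in 4×, and 513 and 718 RPKM in 2×. In these 3 genes both 4× libraries were above both 2× libraries, while 2×-2 was close to the lower 4× library for the thioredoxin and CP12, and none was called. Chaperonin 60 (Cs9g03300), of the family that folds Rubisco, had 414 and 422 RPKM in 4×, and 368 and 476 RPKM in 2×. Ferredoxin-thioredoxin reductase (Cs6g20130) had 271 and 247 RPKM in 4×, and 231 and 284 RPKM in 2×. Another thioredoxin of the F or M type, Cs6g02830, is named after its values were seen. It had 517 and 492 RPKM in 4×, and 472 and 549 RPKM in 2×. In each of these genes both 4× libraries lay between the 2× libraries.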

How the data were processed

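The authors aligned single-end reads of 50 bp to the C. sinensis genome and deposited RPKM per gene from uniquely mapped reads. The submitters' processing notes name TopHat2 2.0.9, Bowtie2 2.0.6, HTSeq 0.5.4p3 and DESeq 1.10.1. Sources used here give neither the annotation version nor whether counting used strand. Reads came from another species than the genome, and genes with near-identical copies or overlapping neighbours are less certain. Whole reads were recovered from the RPKM steps for 24073 of 24073 detected genes (100%, tolerance 0.001 reads), known up to a factor that a gene's 4 counts share. They summed to 97.9% of the totals.

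Genes averaging 1 RPKM or more were tested with limma 3.58.1 (trend, two-sided, pseudocount 0.5) over 16157 genes. The fold changes understate those of low genes. Members and lists were chosen with earlier results of these data known. Named genes were called members, the 2 most abundant genes per enzyme, the 3 largest increases and decreases, and the called genes among other pathway genes. For each enzyme of the other pathway genes, the most abundant gene with the enzyme's words near the start of its description was also named. Not every named gene is reported. Alternatives were pseudocounts of 0.1 and 1, no filter, a minimum mean of 3 RPKM, median-of-ratios scaling, robust eBayes, a replicate block, voom on recovered reads, which called 406 genes, and each library left out.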

Additional observations from a re-analysis of the deposited data

How the results depend on the processing

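Pseudocounts of 0.1 and 1, a minimum mean of 3 RPKM and robust eBayes called 203, 225, 267 (of 13527 tested) and 247 genes, against 224 in the main comparison, and left the calls among members at 2 and among the 79 other tested pathway genes at 1. With all 24073 detected genes in the limma test, 0 genes, 0 members and 0 other pathway genes were called, with 2438, 8 and 14 at an unadjusted p below 0.05. Median-of-ratios scaling called 178 genes and 1 member, and 38.8% of its calls were higher in 4×, against 28.6% in the main comparison. Voom on recovered reads called 406 genes, 3 members and 3 other pathway genes. Same-numbered libraries showed no shared deviation (correlation -0.05), and the labels do not say whether the replicate numbers pair the samples. With the replicate number as a block 832 genes, 4 members and 4 other pathway genes were called. When 1 library was left out, which leaves a lone library assumed to vary like the other group, 77 to 264 genes, 0 to 2 members and 0 to 1 other pathway genes were called, and the median log2 fold change of the members was -0.0052 to 0.094, against 0.07 with all libraries and -0.03 over all tested genes. Of 26 genes followed through all alternatives, 5 changed direction, all uncalled and near 0. Scaling gave 0.0026 for Cs5g06870 and 0.019 for orange1.1t00110, and leaving out 1 library gave -0.089 to 0.031 for Cs5g06870, -0.18 to 0.16 for orange1.1t00110, -0.071 to 0.15 for orange1.1t03281, -0.11 to 0.13 for Cs7g06270 and -0.044 to 0.23 for Cs1g20710. The causes of these changes were not tested. Of the called members, Cs4g03580 rested on 34 to 79 recovered reads per library and Cs4g08150 on 2626 to 4841. The part of depth in these results was not tested. The error of the abundant members combines their own spread between pools with the spread of other genes of similar level, through the trend.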
